A study of Mus musculus with 6 samples.

Results

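In gonads of XY mouse embryos that lack both *Amh* and *Inhbb* (dKO XY), 993 of the 13852 cells that passed the quality filter still carried the Sertoli cell program at E15.5. They were 651 cells of replicate 1 and 342 cells of replicate 2, out of 39350 cells of all 6 libraries. These cells, called Sertoli-program cells here, were chosen from their own measured transcripts. Each had at least 200 CPM (the transcripts of a gene scaled to a total of 1000000 transcripts) of *Cst9*, a gene restricted to Sertoli cells in the fetal gonad. Each also had at least 300 CPM of *Kctd14*, a gene of supporting cells of both sexes, and less than 100 CPM of the granulosa cell genes *Rspo1*, *Foxl2* and *Fst* together. Cells with 4000 CPM or more of *Cyp17a1* and *Cyp11a1* (Leydig cells), with 5 or more transcripts of *Dazl* (germ cells) or with 2 or more of *Upk3b* (surface epithelium) were left out. The 9 genes of this rule are therefore given as a description, with no test, and were left out of all counts of genes.

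Gonads of 3 groups were dissociated, frozen and thawed, and single cell transcripts were tagged with unique molecular identifiers (UMIs) on the 10x Genomics platform, with 2 biological replicates per group. The dKO XY embryos were Amh -/-; Inhbb -/- in all cells, and control XY and control XX embryos were Amh+/+; Inhbb+/+. All cells came from E15.5 gonads, labelled testis for both XY groups and ovary for control XX. The same rule was applied to the control libraries, so that dKO XY and control XY cells chosen by 1 rule could be compared with the library as the replicate. The rule did not trim both genotypes alike. Its granulosa gene limit alone left out 82 and 88 dKO XY cells but 1 and 0 control XY cells. The *Dazl* limit alone left out 56 and 87 against 2 and 1 cells, and the *Kctd14* limit alone 110 and 60 against 54 and 94. What this did to the compared levels was not tested.

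Sertoli cells are the supporting cells of the testis cords. They enclose the germ cells, and SOX9 and DMRT1 hold their identity. Anti-Müllerian hormone (AMH, encoded by *Amh*) and activin B (a dimer of the subunit encoded by *Inhbb*) are ligands of the transforming growth factor beta family that Sertoli cells secrete. Both act through receptor kinases and SMAD proteins. In the ovary, supporting cells become pre-granulosa cells, with FOXL2, RUNX1 and WNT/beta-catenin signalling as leading factors.

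The knocked-out genes were read first. *Amh* (chromosome 10, 80805243 to 80807648 of GRCm38) was at 2371 and 2237 CPM in the control XY and at 25.2 and 19.4 CPM in the dKO XY Sertoli-program cells. *Inhbb* (chromosome 1, 119415465 to 119422248) had 190 and 216 CPM in control XY, compared with 56.7 and 62.5 CPM in dKO XY. The *Amh* levels thus followed the labels, and endothelial cells of dKO XY had 6.19 and 6.69 CPM. Endothelial cells had 5.13 and 4.66 CPM of *Inhbb*, and which part of this gene its remaining transcripts came from was not tested. Libraries held between 152972655 and 296488697 UMIs, and any pair shared between 22 and 74 cell barcodes, at most 0.720% of the smaller library. Germ cells (5 or more *Dazl* UMIs) numbered 479 and 450 in the dKO XY libraries, but 15 and 10 in control XY.

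Sertoli-program cells made up 7.99% (95% exact binomial interval 7.41 to 8.60) and 6.0% (5.40 to 6.65) of the cells in the dKO XY libraries. The same rule found 196 and 387 cells in the control XY libraries, or 2.87% (2.49 to 3.30) and 4.52% (4.09 to 4.98). In control XX it found 0 of 5330 and 0 of 4781 cells, with upper ends of the exact interval of 0.0692% and 0.0771%. These intervals cover counting error only. The other supporting cells of the dKO XY gonads were 82 and 88 cells with both *Cst9* and granulosa genes, and 497 and 451 cells with granulosa genes and *Cst9* below its limit. The dKO XY Sertoli-program cells had a median of 24548 and 29860 UMIs and 8.43% and 11.9% mitochondrial UMIs, and the control XY cells had 26517 and 24131 UMIs and 7.29% and 11.1%.

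Some cells lay close to the limits of the rule. In dKO XY, 12 and 11 cells lay between 200 and 300 CPM of *Cst9*, just inside the rule, with a summed level of 10 other Sertoli genes of 4779 and 2637 CPM. Just outside, 29 and 36 cells had between 100 and 200 CPM of *Cst9* and 1999 and 1523 CPM of these Sertoli genes. For the granulosa genes, 50 and 41 cells had between 50 and 100 CPM and were included, while 22 and 24 cells had between 100 and 150 CPM. The included cells had 8021 and 7732 CPM of the Sertoli genes, and those left out 7140 and 5716 CPM. Of 5 granulosa genes outside the rule, the included cells had 341 and 330 CPM and those left out 225 and 322 CPM. At the limit of *Kctd14*, 23 and 13 cells between 300 and 400 CPM had 6309 and 4356 CPM of the Sertoli genes, and 22 and 15 cells between 200 and 300 CPM had 3001 and 2820 CPM.

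*Cst9* itself, which encodes a secreted cystatin-like protein, was at 2600 and 2201 CPM in the dKO XY and at 1298 and 1174 CPM in the control XY Sertoli-program cells. All dKO XY values lay above all control XY values. The granulosa-gene cells of dKO XY had 31.8 and 35.3 CPM of it, and endothelial cells 13.5 and 17.2 CPM. Both classes were limited by definition to cells under 200 CPM of *Cst9*, so these levels are no independent background. *Kctd14* was at 1551 and 1698 CPM in dKO XY and at 923 and 957 CPM in control XY. Of the granulosa genes in the rule, *Rspo1*, which encodes a WNT amplifier, was at 7.57 and 10.6 CPM in dKO XY against 2.55 and 1.00 CPM, *Foxl2* at 1.16 and 1.62 against 0.318 and 0.167 CPM, and *Fst*, which encodes the activin-binding follistatin, at 2.21 and 1.62 against 0.477 and 0.502 CPM. Endothelial cells of dKO XY had 7.83 and 3.04 CPM of *Rspo1* and 1.55 and 0.608 CPM of *Foxl2*. The 250 bases before the *Cst9* start site are shown because this gene defines the cells. They lie on the plus strand of GRCm38 at chr2:148834897-148835146 (sequence and coordinates from RefSeq), and capitals mark a match to the SOX core letters ACAAAG on the reverse strand, at position -152 from the start site (a second match at 35 lies outside the bases shown):
Cst9: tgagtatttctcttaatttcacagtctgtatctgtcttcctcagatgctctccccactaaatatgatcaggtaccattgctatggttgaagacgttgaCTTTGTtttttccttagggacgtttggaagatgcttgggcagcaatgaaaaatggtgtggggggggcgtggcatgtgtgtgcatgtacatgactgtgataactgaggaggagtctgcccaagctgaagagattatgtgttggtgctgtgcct
Of 32851 promoter windows of 300 bases in RefSeq, 18.7% hold ACAAAG on either strand. The match is a description, and whether it is bound was not tested.

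Of the 7 listed transcription factors of the Sertoli lineage, *Sox10* and *Wt1* were higher in dKO XY, *Sox8* was lower and 4 were not called, *Sox9* among them. *Sox9*, the central testis-determining factor in these cells, was at 507 and 510 CPM in dKO XY and at 406 and 403 CPM in control XY. Its libraries did not overlap between the genotypes, but the difference did not pass the test (log2 change 0.29, standard error, SE, 0.12, adjusted p = 0.11 in the quasi-likelihood test of edgeR). *Dmrt1*, which keeps Sertoli cells male, was at 42.3 and 38.7 CPM against 44.9 and 41.4 CPM. *Gata4* was at 168 and 170 against 170 and 187 CPM, and *Nr5a1* at 93.8 and 109 against 79.6 and 98.0 CPM. Both encode factors shared by the gonadal somatic cells, and neither passed the test (log2 fold changes -0.12 and 0.15). *Sox10*, a relative of *Sox9*, rose from 11.5 and 13.5 CPM to 21.4 and 25.6 CPM, by a log2 change of 0.86 (SE 0.18, adjusted p = 0.0040, or 0.056 after thinning to 8000 UMIs per cell). *Wt1*, which encodes a regulator of gonadal supporting cells, rose from 223 and 260 CPM to 382 and 418 CPM, with a log2 change of 0.69 (0.12, adjusted p = 0.0012). *Sox8*, another relative of *Sox9*, fell from 60.6 and 70.3 CPM to 45.6 and 52.5 CPM (log2 change -0.46, adjusted p = 0.042), a call that was lost without dKO XY replicate 1 (adjusted p = 0.26) or without control XY replicate 2 (0.27) and held in 9 of 17 alternatives. When a library was left out, the genotype kept 1 library, which was assumed to vary like those of the other genotype. In the granulosa-gene cells of the same gonads, *Sox9* was at 81.6 and 59.5 CPM and *Dmrt1* at 1.96 and 2.58 CPM. The rule itself separates these cells from the Sertoli-program cells, so no test was made between them.

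Of 13417 genes tested between dKO XY and control XY Sertoli-program cells, 1242 were higher and 822 lower in dKO XY, which is 9.26% and 6.13% of genes, or 15.4% called in all. Libraries of the 2 genotypes did not overlap for 53% of the genes. Of the 7 transcription factors, 2 were higher, 1 was lower and 4 were not called, with a median log2 change of 0.15 beside -0.01 over all genes tested.

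**Figure D1:**
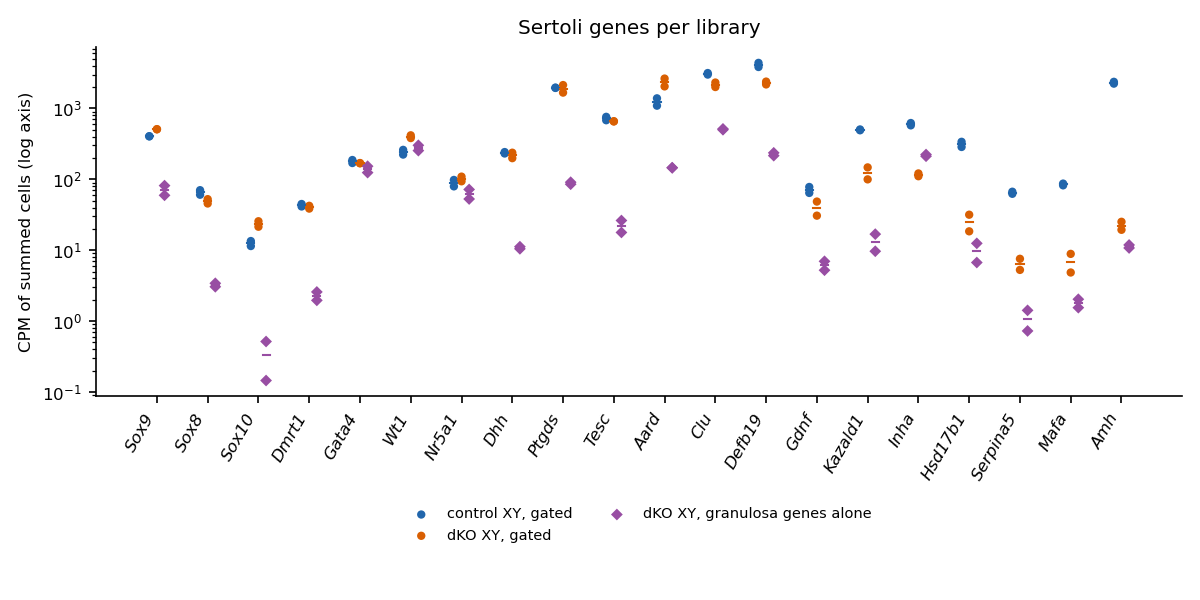
Level of 20 Sertoli genes (CPM of the summed cells, log axis) in each library, with a point per library and a bar at the mean of the 2 libraries, for Sertoli-program cells of control XY (blue) and dKO XY (orange) and for dKO XY cells with granulosa genes and little *Cst9* (purple). *Dmrt1*, *Dhh* and *Ptgds* of the Sertoli-program cells overlap between the genotypes, and *Kazald1*, *Inha*, *Hsd17b1*, *Serpina5*, *Mafa* and *Amh* lie apart.

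Genes that Sertoli cells secrete or carry at their surface moved in both directions. Of 26 such genes, 11 were lower in dKO XY, 5 were higher and 10 were not called, beside 9.26% higher and 6.13% lower among all genes, with a median log2 change of -0.26. Without control XY replicate 2, 8 were lower and 6 higher. The list was written with earlier results of these data known.

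Genes without a call included the Hedgehog ligand gene *Dhh*, which signals to Leydig cells, at 237 and 199 CPM in dKO XY and 242 and 231 CPM in control XY. *Ptgds*, which encodes the prostaglandin D2 synthase that supports *Sox9*, was at 2135 and 1671 against 1968 and 1945 CPM. *Tesc*, which encodes the calcium-binding protein tescalcin, was at 654 and 660 against 681 and 761 CPM. Their log2 fold changes were -0.16, -0.08 and -0.17, and none passed the test.

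Among the called genes of this list, *Hsd17b1* and *Serpina5* fell most. *Hsd17b1* (chromosome 11, 101078411 to 101080527) encodes a 17-beta-hydroxysteroid dehydrogenase that makes active sex steroids. It was at 338 and 286 CPM in control XY, compared with 31.7 and 18.5 CPM in dKO XY (log2 change -3.66, SE 0.25, adjusted p = 0.00014, or 0.058 without control XY replicate 2). The related *Hsd17b3*, which encodes the enzyme that turns androstenedione into testosterone, went from 265 and 267 CPM to 183 and 151 CPM, a log2 change of -0.71 (0.12, adjusted p = 0.00067). *Inha*, which encodes the alpha subunit of inhibin, went from 577 and 622 CPM to 111 and 121 CPM (-2.41, SE 0.13, adjusted p = 9.3e-09). The dKO XY granulosa-gene cells had more of it, at 224 and 212 CPM. *Serpina5*, which encodes a secreted protease inhibitor, fell from 66.8 and 62.5 CPM to 7.57 and 5.28 CPM (-3.34, 0.18, adjusted p = 1.1e-08). *Kazald1*, which encodes a secreted protein of the insulin-like growth factor binding type, fell from 505 and 492 CPM to 147 and 99.9 CPM (-2.05, 0.16, adjusted p = 1.4e-06). The receptor gene for follicle-stimulating hormone, *Fshr*, was low in both genotypes, at 6.05 and 5.02 CPM in control XY and 1.84 and 0.766 CPM in dKO XY. Its log2 change of -2.02 was -2.83 without dKO XY replicate 1. The chemokine gene *Ccl17* had 161 and 91.2 CPM in control XY against 8.83 and 2.89 CPM in dKO XY, but its difference did not pass the test (log2 change -4.39, SE 0.77, adjusted p = 0.10). It was called in 6 of 17 alternatives, with DESeq2 among them (adjusted p = 1.4e-06). The log2 change was -5.45 without dKO XY replicate 1 and -3.89 without dKO XY replicate 2, and both of these calls rest on the spread of control XY alone.

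*Defb19*, *Clu* and *Gdnf* fell by less than 1 on the log2 scale. *Defb19*, which encodes a beta-defensin and belongs to a gene family whose reads can be shared, fell from 4388 and 3840 CPM to 2390 and 2179 CPM (log2 change -0.89, SE 0.14, adjusted p = 0.00048). The clusterin gene *Clu* fell from 3154 and 3001 CPM to 2317 and 2003 CPM (-0.55, 0.14, adjusted p = 0.012), and the call was lost without dKO XY replicate 2 (adjusted p = 0.21) and in non-cycling cells (0.10). *Gdnf*, which encodes a growth factor for germ cells, fell from 64.3 and 78.0 CPM to 48.6 and 30.7 CPM, by a log2 change of -0.88 (0.19, adjusted p = 0.0097). Its call was lost with the replicate number as a block (adjusted p = 0.098) and without control XY replicate 2 (log2 change -0.74).

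Other genes of the list rose. *Fgf9* (chromosome 14, 58070547 to 58112720), which encodes the fibroblast growth factor that stabilises *Sox9* in the early testis, was at 61.6 and 54.9 CPM in dKO XY against 7.16 and 8.53 CPM in control XY (log2 change 2.83, SE 0.17, adjusted p = 3.1e-08). At an equal depth of 8000 UMIs per cell, a UMI of *Fgf9* was found in 33.1% and 32.8% of the Sertoli-program cells of dKO XY, against 5.67% and 8.49% in control XY. Granulosa-gene cells of dKO XY had one in 2.97% and 3.90% of cells and endothelial cells in 0.426% and 2.80%. Without thinning, the shares in Sertoli-program cells were 58.4% and 65.8% in dKO XY, against 18.4% and 19.9% in control XY. The level of *Fgf9* was 36.6 and 30.7 CPM in dKO XY cells with both *Cst9* and granulosa genes, 3.71 and 4.84 CPM in granulosa-gene cells, and 3.81 and 3.17 CPM in control XX granulosa cells. *Cldn11*, which encodes a tight junction protein of the cord epithelium, rose from 23.9 and 25.2 CPM to 87.2 and 84.1 CPM (log2 change 1.76, 0.14, adjusted p = 4.8e-07). *Aard*, a gene abundant in Sertoli cells, rose from 1387 and 1093 CPM to 2636 and 2044 CPM (0.87, 0.16, adjusted p = 0.0013), and the collagen gene *Col9a3* from 317 and 329 CPM to 654 and 597 CPM (0.91, 0.12, adjusted p = 6.3e-05).

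The 12 largest falls among called genes whose mean log2 CPM reached 5 were, beside *Amh*, *Hsd17b1*, *Serpina5*, *Inha* and *Kazald1*, those of *Mafa*, *Cbln1*, *Spock2*, *Serpina3a*, *Kcnmb4*, *Spata21* and *Slc38a5*. *Mafa*, which encodes a transcription factor best known from pancreatic beta cells, went from 87.0 and 82.2 CPM to 8.88 and 4.85 CPM (log2 change -3.63, SE 0.22, adjusted p = 5.5e-07). *Cbln1*, which encodes a secreted C1q-type protein of synapses, went from 63.3 and 64.7 CPM to 8.25 and 9.71 CPM (-2.88, 0.16, adjusted p = 2.1e-08). *Spock2*, which encodes a matrix proteoglycan, went from 90.4 and 91.0 CPM to 18.6 and 16.2 CPM (-2.42, 0.14, adjusted p = 3.1e-08). *Serpina3a*, which belongs to a cluster of similar genes that can share reads, *Kcnmb4*, *Spata21* and the amino acid transporter gene *Slc38a5* fell by log2 fold changes of -2.35, -2.20, -2.01 and -1.99. In all 12 genes, both dKO XY libraries lay below both control XY libraries, as the rule for naming them required.

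The largest rises by the same rule included those of *Ccnd1*, *Tgfbi*, *Ifitm1*, *Nrtn*, *Fgf9*, *Ildr2*, *Hmga2*, *Nppc*, *Serpinb6b*, *Bst2* and *Apoe*. *Ccnd1* (chromosome 7, 144929931 to 144939925), which encodes cyclin D1, was at 58.9 and 86.2 CPM in dKO XY against 3.02 and 3.10 CPM in control XY (log2 change 4.52, SE 0.25, adjusted p = 9.2e-08). *Tgfbi*, which encodes a matrix protein induced by transforming growth factor beta in many cells, was at 139 and 130 against 7.16 and 8.53 CPM (4.04, 0.16, adjusted p = 6.4e-10). *Nrtn*, which encodes a ligand of the GDNF family, was at 107 and 117 against 13.5 and 13.6 CPM (3.0, 0.15, adjusted p = 6.5e-09), the opposite direction to *Gdnf*. *Hmga2*, which encodes an architectural chromatin protein of fetal cells, was at 122 and 161 against 28.6 and 27.1 CPM (2.31, 0.16, adjusted p = 2.3e-07).

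Some of these genes were high in other cells of the same gonads. *Ifitm1*, which encodes an interferon-induced membrane protein, was at 339 and 395 CPM in dKO XY and 31.2 and 19.4 CPM in control XY Sertoli-program cells (log2 change 3.85, SE 0.23, adjusted p = 2.1e-05). Germ cells of dKO XY had 1001 and 825 CPM of it and granulosa-gene cells 991 and 810 CPM. Without cells that held a germ cell UMI, its log2 change was 3.91 and its adjusted p 0.080. *Apoe* was at 109 and 157 against 31.2 and 30.5 CPM, and immune cells of dKO XY had 7707 and 10728 CPM. The log2 change of *Apoe* was 2.07, with 1.96 after thinning to 8000 UMIs and 2.85 in non-cycling cells, where the call was lost (adjusted p = 0.096 and 0.34). *Ildr2* and *Fgf9* were highest in the Sertoli-program cells among the gated cell classes of dKO XY. *Ildr2*, which encodes a membrane protein of the angulin family, was at 64.5 and 74.4 CPM there against 9.81 and 9.87 CPM in granulosa-gene cells and 10.5 and 13.5 CPM in control XY.

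**Figure D2:**
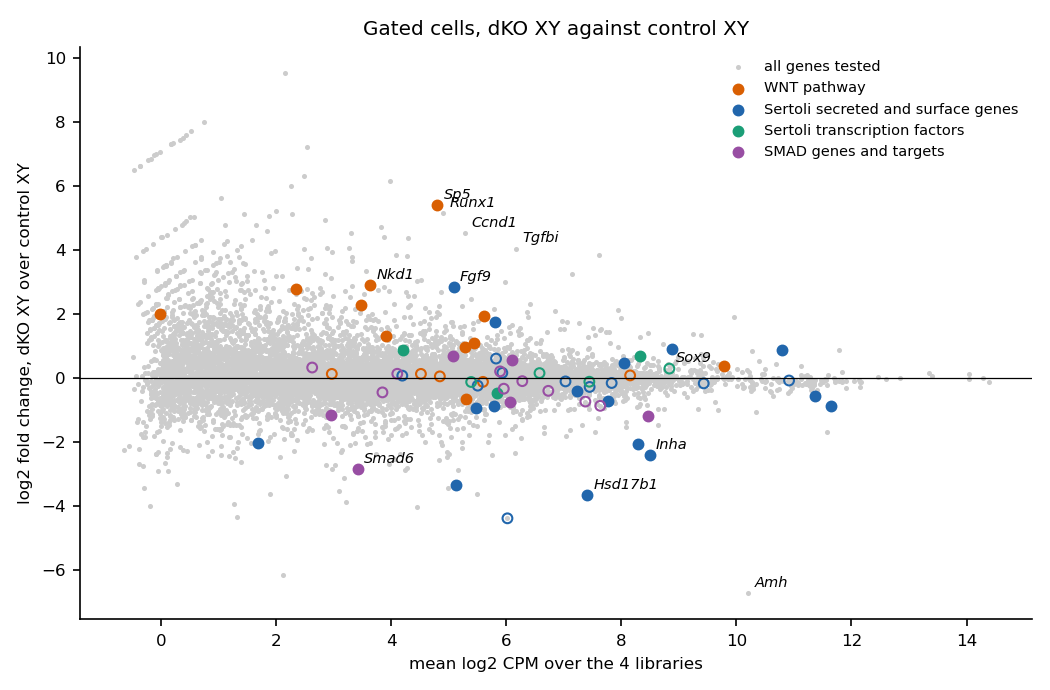
Log2 fold change between dKO XY and control XY Sertoli-program cells (vertical axis) against the mean log2 CPM over the 4 libraries (horizontal axis) for 13417 genes (grey), with 4 gene lists in colour, filled where the gene passed the test. WNT pathway genes lie mostly above 0, and Sertoli secreted and surface genes on both sides.

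Of 13 genes of the pre-granulosa program that the rule did not use and that could be tested, 10 were higher in dKO XY, 3 were not called and none was lower, beside 9.26% higher and 6.13% lower among all genes, and the median log2 change was 1.93. The list was written with earlier results of these data known and is no independent evidence. With each library left out, 9 were higher, and 7 of 12 tested were higher without cycling cells.

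*Runx1* (chromosome 16, 92601466 to 92826149), which encodes a factor that holds fetal granulosa cell identity, was at 53.6 and 58.6 CPM in dKO XY and at 1.27 and 1.67 CPM in control XY Sertoli-program cells (log2 change 5.15, SE 0.22, adjusted p = 8.7e-10). Its level in dKO XY granulosa-gene cells was 95.2 and 110 CPM and in control XX granulosa cells 174 and 120 CPM. At 8000 UMIs per cell, 29.2% and 32.5% of dKO XY Sertoli-program cells had a UMI of *Runx1*, against 0.515% and 1.86% in control XY. The share was 44.9% and 52.1% in dKO XY granulosa-gene cells and 4.68% and 1.87% in endothelial cells. Without thinning, it was 56.8% and 65.2% in dKO XY Sertoli-program cells, with median depths of 24548 and 29860 UMIs, and 14.0% and 7.27% in endothelial cells, with 33024.5 and 41287.5 UMIs. Immune cells, which express *Runx1*, had 169 and 193 CPM.

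*Lgr5*, which encodes a receptor for R-spondins, was at 66.8 and 86.7 CPM in dKO XY and at 17.5 and 21.4 CPM in control XY (log2 change 1.93, SE 0.18, adjusted p = 2.7e-06). The granulosa-gene cells of the same gonads were lower, at 16.8 and 15.4 CPM, and endothelial cells had 0.870 and 1.82 CPM. *Nr0b1*, which encodes DAX1, a repressor of nuclear receptor NR5A1, was at 48.4 and 39.1 CPM against 10.8 and 9.62 CPM in control XY (2.07, 0.17, adjusted p = 7.4e-07). Control XX granulosa cells had 22.4 CPM of *Nr0b1* in both libraries. For *Lgr5* and *Nr0b1*, the Sertoli-program cells of dKO XY were thus above the granulosa-gene cells of dKO XY in both libraries, and for *Nr0b1* also above control XX granulosa cells. The dKO XY cells with both *Cst9* and granulosa genes had more *Nr0b1*, at 59.6 and 52.8 CPM, and less *Lgr5*, at 39.3 and 65.8 CPM.

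*Gng13* and *Wnt4* rose and *Irx3* was not called, and all of them were lower than in the granulosa-gene cells of dKO XY. *Irx3*, which encodes a homeobox factor of granulosa cells, was at 2.47 and 2.13 CPM in dKO XY and 1.75 and 0.920 CPM in control XY, which did not pass the test (log2 change 0.85, adjusted p = 0.24), although it did without cells that held a germ cell UMI (log2 change 1.64, adjusted p = 0.038). It was at 87.6 and 64.4 CPM in the granulosa-gene cells and at 32.6 and 31.2 CPM in endothelial cells. *Gng13*, which encodes a G protein subunit, rose from 1.91 and 1.51 CPM to 8.62 and 12.8 CPM (2.63, SE 0.32, adjusted p = 3.7e-05). That level was no higher than the 10.5 and 17.0 CPM in immune cells, and far below the 863 and 934 CPM of control XX granulosa cells. *Wnt4*, which encodes the WNT ligand of the fetal ovary, was at 47.5 and 55.3 against 31.3 and 20.8 CPM (0.96, 0.19, adjusted p = 0.0037). Its call was lost without cells that held a germ cell UMI (adjusted p = 0.25) and without the 8% of cells with the highest doublet scores, where the log2 change was 2.07 (adjusted p = 0.062). Without the limit on *Kctd14* its log2 change was 0.22 (adjusted p = 0.39), and the call was also lost in non-cycling cells (adjusted p = 0.21) and with the replicate number as a block (0.055). Granulosa-gene cells of dKO XY had 295 and 242 CPM of *Wnt4*. Immune cells of dKO XY had 45.5 and 67.5 CPM of *Wnt4*.

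**Figure D3:**
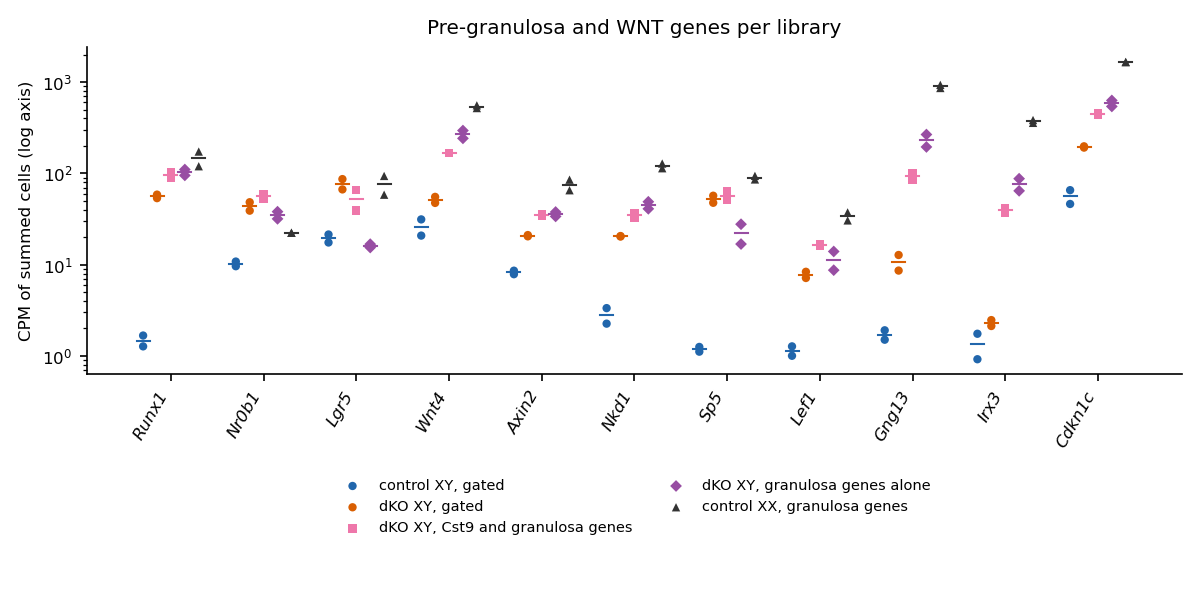
Level of 11 pre-granulosa and WNT genes (CPM of the summed cells, log axis), with a point per library and a bar at the mean of the 2 libraries, in Sertoli-program cells of control XY (blue) and dKO XY (orange), in dKO XY cells with both *Cst9* and granulosa genes (pink), in dKO XY cells with granulosa genes and little *Cst9* (purple) and in control XX granulosa cells (black). *Runx1* and *Sp5* of the dKO XY Sertoli-program cells lie near the other dKO XY classes, whereas *Gng13* and *Irx3* lie far below those classes.

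Many genes of the WNT pathway rose. Of 16 genes tested, 10 were higher in dKO XY and 1 was lower, beside 9.26% higher and 6.13% lower among all genes, with a median log2 change of 1.03. The higher genes *Wnt4*, *Lgr5*, *Lef1* and *Axin2* also stand in the pre-granulosa list, so the counts of these lists overlap. With each library left out, between 8 and 9 were higher, and 7 were higher without cells that held a germ cell UMI. *Sp5* (chromosome 2, 70474923 to 70477729) encodes a transcription factor that is induced directly by beta-catenin in many tissues. It was at 57.0 and 47.7 CPM in dKO XY against 1.11 and 1.26 CPM in control XY (log2 change 5.39, SE 0.23, adjusted p = 8.7e-10). Endothelial cells had 1.16 and 1.42 CPM and granulosa-gene cells 27.8 and 16.8 CPM. Germ cells had 38.1 and 32.0 CPM, and without cells that held a germ cell UMI the log2 change of *Sp5* was 6.05. Of the feedback inhibitor genes of the pathway, 3 rose and *Znrf3*, which encodes a ligase related to that of *Rnf43*, was not called (23.4 and 24.6 against 18.6 and 23.7 CPM, log2 change 0.13, adjusted p = 0.71). *Nkd1* went from 3.34 and 2.26 CPM to 20.3 and 20.6 CPM (2.89, 0.24, adjusted p = 6.7e-07), *Rnf43*, which encodes a ligase that removes WNT receptors, from 3.82 and 3.26 CPM to 15.0 and 19.8 CPM (2.27, 0.24, adjusted p = 1.0e-05), and *Axin2* from 8.59 and 7.87 CPM to 20.4 and 21.1 CPM (1.31, 0.18, adjusted p = 0.00016). Among the nuclear factors, *Lef1* rose from 1.27 and 1.00 CPM to 8.36 and 7.15 CPM (2.77, 0.33, adjusted p = 2.9e-05), while *Tcf7* fell from 48.1 and 46.9 CPM to 32.2 and 30.0 CPM (-0.65, 0.14, adjusted p = 0.0050). *Lgr4*, the second R-spondin receptor gene of the list, rose from 26.4 and 26.8 CPM to 58.8 CPM in both dKO XY libraries (1.10, 0.14, adjusted p = 6.8e-05).

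The promoter of *Sp5* is shown because this gene had the largest rise of the WNT list. The 250 bases before its start site lie on the plus strand of GRCm38 at chr2:70474673-70474922 (RefSeq). Capitals mark the letters CTTTGA, the core that TCF and LEF factors bind, at -204 and -104:
Sp5: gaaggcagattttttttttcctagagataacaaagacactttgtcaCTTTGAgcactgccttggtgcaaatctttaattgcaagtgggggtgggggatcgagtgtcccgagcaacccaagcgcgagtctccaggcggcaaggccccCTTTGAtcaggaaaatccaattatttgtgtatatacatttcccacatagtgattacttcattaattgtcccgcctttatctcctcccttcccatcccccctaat
Both strands were searched in the windows of 300 bases. CTTTGA was found in 16% of the 32851 windows and at least 2 matches in 1.73%. Of the 17 WNT genes, 13 had a window and 3 of these held the letters, namely *Sp5*, *Lef1* and *Fzd1*. A gene counted here if any of its windows held the letters, whereas the 16% is a share of windows. For *Lef1*, only the window at chr3:131156044-131156343 held them, and not those near the gene start at 131110471. The windows of *Axin2*, *Nkd1* and *Rnf43* did not hold the letters. Whether the letters are bound was not tested. The *Sp5* window also held ACAAAG or its reverse CTTTGT at -221 and -212, which are not in capitals, and at 42, outside the bases shown.

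Within the Sertoli-program cells, granulosa transcripts were spread over many cells. After thinning every cell to 8000 UMIs, 620 and 332 cells of dKO XY remained, with 194 and 377 of control XY. Too shallow were 31 and 10 cells of dKO XY, with 2 and 10 of control XY. Of *Runx1*, *Irx3*, *Wnt4*, *Lgr5* and *Gng13*, none was detected in 33.7% (95% exact binomial interval 30.0 to 37.6) and 28.6% (23.8 to 33.8) of dKO XY cells. In control XY, none was detected in 74.7% (68.0 to 80.7) and 75.9% (71.2 to 80.1) of cells. At least 2 of them were detected in 24.5% (21.2 to 28.1) and 33.4% (28.4 to 38.8) of dKO XY cells, but in 1.03% (0.125 to 3.67) and 1.86% (0.750 to 3.79) of control XY cells. Such combined shares were not computed for endothelial or immune cells. Of the 5 genes, *Lgr5* was found most often in dKO XY Sertoli-program cells, in 38.1% and 43.4%, against 10.8% and 14.6% in control XY. The granulosa-gene cells of dKO XY had *Lgr5* in 10.4% and 11.5%, near the shares of control XY Sertoli-program cells. In dKO XY Sertoli-program cells, *Irx3* was found in 0.968% and 1.20% and *Gng13* in 6.61% and 8.43%. At this depth, dKO XY endothelial cells had *Wnt4* in 8.94% and 2.80% and *Lgr5* in 0.851% and 0.935% of cells. *Irx3* was found in 18.7% of those of replicate 1. The dKO XY cells with none of these transcripts had a mean summed level of 10 Sertoli genes of 12775 and 10908 CPM. With 2 of these genes detected the level was 9836 and 7916 CPM, and with 3 or more, in 21 and 14 cells, it was 8244 and 8250 CPM. In control XY it was 13628 and 12106 CPM with none and 11186 and 11311 CPM with 1. In dKO XY the level was thus lower with each further gene detected, apart from the last step in replicate 2. Control XY had 2 and 7 cells with more than 1 of these genes, too few to describe. Since the rule selected the cells on related genes, this is a description and was not tested.

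**Figure D4:**
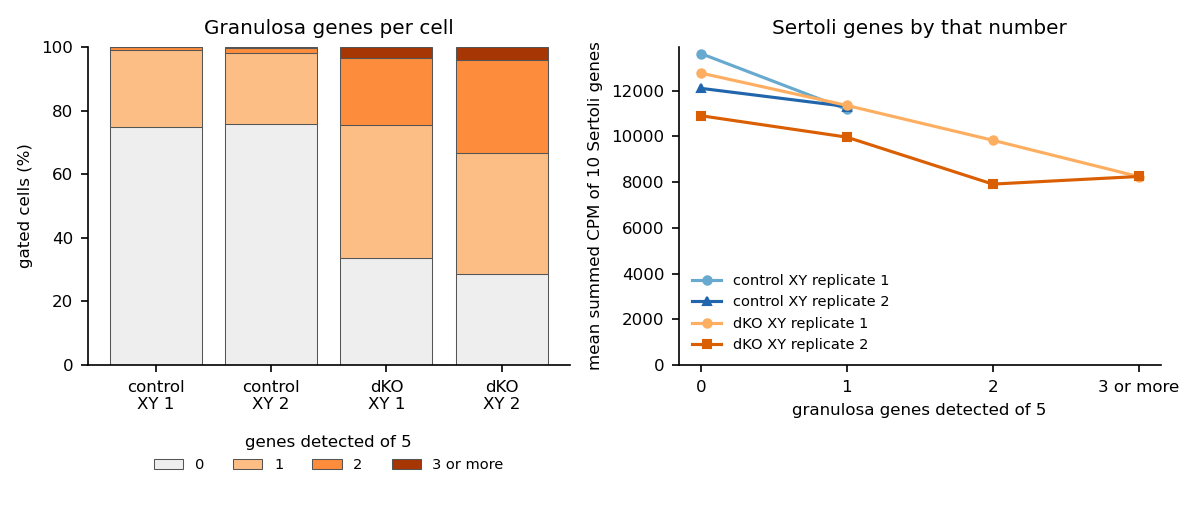
Left, share of Sertoli-program cells (%) with 0, 1, 2 or 3 or more of 5 granulosa genes detected, for each library, after thinning to 8000 UMIs. Right, mean summed CPM of 10 Sertoli genes in these cells by that number, for groups of at least 10 cells. The white part, cells with none, is near 75% in control XY and near 30% in dKO XY.

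The ligand genes of the family moved in opposite directions. Beside *Amh* (log2 change -6.72, SE 0.18, adjusted p = 3.6e-12) and *Inhbb* (-1.81, 0.13, adjusted p = 1.8e-07), which were knocked out, *Inha* and *Inhba* were lower. *Inhba*, which encodes the subunit of activin A, went from 42.6 and 24.9 CPM to 14.5 and 10.0 CPM (-1.46, 0.28, adjusted p = 0.012), a call that was lost without cells of high doublet scores (log2 change -0.89, adjusted p = 0.43) and without cells that held a germ cell UMI (-1.41, adjusted p = 0.52). *Bmp7*, *Bmp4* and *Bmp2*, genes of bone morphogenetic proteins, were higher, at low levels. *Bmp7* went from 1.59 and 0.586 CPM to 13.9 and 19.2 CPM, a log2 change of 4.06 (0.36, adjusted p = 4.8e-06) that was 3.32 without control XY replicate 2 and 4.76 without control XY replicate 1. *Bmp4* went from 0.637 and 0.669 CPM to 4.57 and 3.83 CPM and *Bmp2* from 0.637 and 0.920 CPM to 4.94 and 4.77 CPM, which was lower than in the immune cells for *Bmp2* (22.7 and 44.5 CPM) and about as in them for *Bmp4* (4.16 and 4.0 CPM). The log2 change of *Bmp2* was 2.52, but 1.0 without the limit on *Kctd14* (adjusted p = 0.21) and 0.98 in non-cycling cells (adjusted p = 0.38). Of 10 ligand genes tested, 3 were higher, 4 lower and 3 not called, where 9.26% of all genes were higher and 6.13% lower. *Amh* and *Inhbb*, the knocked-out genes, are among the 4. The number of lower ligand genes is therefore no result to set beside the 6.13%.

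Most receptor genes were not called. *Amhr2*, which encodes the type 2 receptor of AMH, rose from 224 and 235 CPM to 374 and 370 CPM (log2 change 0.66, SE 0.11, adjusted p = 0.00084). *Bmpr2* fell from 68.6 and 93.9 CPM to 48.1 and 54.4 CPM (-0.71, 0.16, adjusted p = 0.0062). Its call was lost with the other supporting cell classes in the fit (adjusted p = 0.072) and without control XY replicate 2 (log2 change -0.46). Of 12 receptor genes tested, 1 was higher, 2 were lower and 9 were not called, near the shares of 9.26% higher and 6.13% lower among all genes, and without control XY replicate 2 none was lower.

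Downstream, the genes of the inhibitory SMADs fell. *Smad6* (chromosome 9, 63953076 to 64022059), which encodes an inhibitor that is itself induced by bone morphogenetic protein signals in many cells, went from 20.5 and 19.3 CPM to 2.89 and 2.72 CPM (log2 change -2.86, SE 0.21, adjusted p = 2.7e-07). Granulosa-gene cells of dKO XY had 7.42 and 6.97 CPM and endothelial cells 12.3 and 34.0 CPM, both above the level of the Sertoli-program cells, while immune cells had 5.87 and 2.0 CPM. *Smad7*, the second inhibitor, fell from 435 and 534 CPM to 254 and 179 CPM (-1.20, 0.16, adjusted p = 0.00029). *Fstl3*, which encodes an activin-binding protein, fell from 13 and 9.20 CPM to 4.73 and 5.45 CPM (-1.15, 0.24, adjusted p = 0.0040), but its call was lost after thinning to 8000 UMIs (log2 change -0.23, adjusted p = 0.87). *Id1* and *Id3*, which are common targets of this pathway, did not pass the test. *Id1* was at 222 and 64.0 CPM in dKO XY and 276 and 232 CPM in control XY (log2 change -0.87, SE 0.82, adjusted p = 0.65), and *Id3* at 182 and 70.7 against 214 and 196 CPM. The dKO XY replicate 2 was low in both genes also in its other cell classes, for instance with 172 CPM of *Id1* in granulosa-gene cells against 856 CPM in replicate 1. Without dKO XY replicate 1, the log2 changes were -2.01 for *Id1* and -1.56 for *Id3*. Both then passed the threshold, but with a single low dKO XY library and the spread of control XY alone, which is no test of the genotype. Of 15 SMAD genes and targets tested, 2 were higher, 4 lower and 9 not called, beside 9.26% higher and 6.13% lower among all genes, and 7 were lower without dKO XY replicate 1. The number of higher genes was 3 without dKO XY replicate 2 and 1 when any of the other libraries was left out.

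The window around the *Smad6* start site, from 120 bases before it to 20 bases after, is shown because it holds the palindrome GTCTAGAC that SMAD proteins bind (capitals, at -4). It lies on the minus strand of GRCm38 at chr9:64022040-64022179 (RefSeq):
Smad6: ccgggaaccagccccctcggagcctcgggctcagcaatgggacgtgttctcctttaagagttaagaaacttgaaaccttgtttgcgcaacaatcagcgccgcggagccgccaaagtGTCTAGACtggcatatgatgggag
Of the 32851 windows of 300 bases, 70 (0.213%) held these letters, which read the same on both strands. Of the 16 SMAD genes and targets, 10 had a window, and among these *Smad6* alone held the palindrome. *Smad7* and *Id1* had no window, so their promoters were not searched. Whether the palindrome is bound was not tested.

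**Figure D5:**
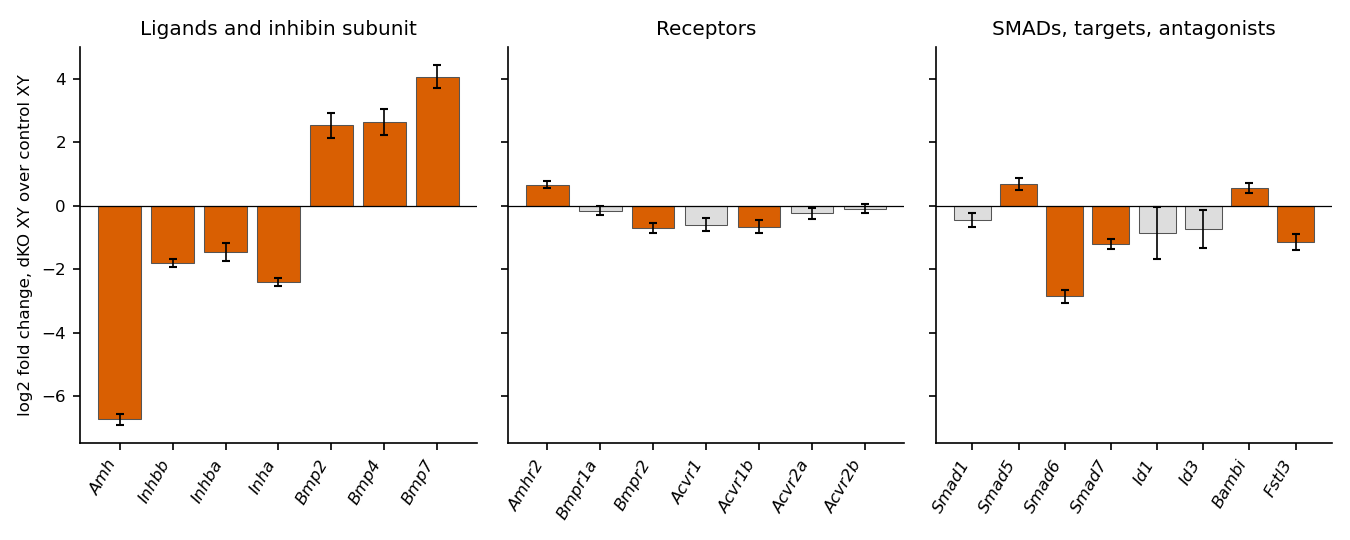
Log2 fold change between dKO XY and control XY Sertoli-program cells for ligands, receptors and SMAD genes with targets and antagonists. Error bars are standard errors derived from the F statistic of the edgeR test, and orange bars passed the test while grey bars did not. *Amh*, *Inha*, *Smad6* and *Smad7* are below 0 and the 3 *Bmp* genes above it.

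Of the 3 D cyclin genes, *Ccnd1* and *Ccnd2* moved in opposite directions and the other was not called. *Ccnd2*, which encodes cyclin D2, fell from 548 and 603 CPM to 206 and 219 CPM (log2 change -1.47, SE 0.12, adjusted p = 7.2e-07), where *Ccnd1* rose. *Cdkn1c*, which encodes the inhibitor p57, rose from 65.6 and 46.3 CPM to 192 and 198 CPM (1.77, 0.16, adjusted p = 3.7e-06), still below the 631 and 542 CPM of granulosa-gene cells. *Cdkn2c*, which encodes the inhibitor p18, fell from 9.23 and 12.9 CPM to 7.36 and 5.45 CPM (-0.84, 0.23, adjusted p = 0.022), a call that was lost without dKO XY replicate 2 (adjusted p = 0.061) or control XY replicate 2 (0.30) and with DESeq2 (0.11). Of 9 genes of CDK inhibitors and D cyclins, 3 were higher, 2 lower and 4 not called, and 1 was lower without dKO XY replicate 2 or control XY replicate 2. Of 12 mitosis genes, 5 were lower and none higher, beside 9.26% higher and 6.13% lower among all genes, with a median log2 change of -0.42. Their number moved between 1 (without control XY replicate 2) and 10 (without control XY replicate 1). *Top2a*, which encodes topoisomerase II alpha, was at 240 and 263 CPM against 310 and 428 CPM (-0.59, adjusted p = 0.014). Its call was lost without control XY replicate 2 (log2 change -0.34) and after thinning to 8000 UMIs (-0.35, adjusted p = 0.28). It was also lost with the other supporting cell classes in the fit (adjusted p = 0.061) and when no UMI of *Rspo1*, *Foxl2* or *Fst* was allowed (0.081). *Mki67* was at 137 and 157 against 145 and 251 CPM and did not pass the test. Its log2 change of -0.47 was -0.61 without dKO XY replicate 2 and -0.81 without control XY replicate 1. Of 12 S phase genes, 5 were lower, a number that was 1 without dKO XY replicate 1, 3 without dKO XY replicate 2 and 1 without control XY replicate 1. Cells with at least 200 CPM of mitosis genes were 61.6% (57.7 to 65.4) and 71.6% (66.5 to 76.4) of dKO XY and 65.8% (58.7 to 72.4) and 67.4% (62.5 to 72.1) of control XY Sertoli-program cells.

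Of 19 basement membrane and junction genes, 4 were higher and 4 lower, beside 9.26% higher and 6.13% lower among all genes. With the other supporting cell classes in the fit, 3 were higher and 1 lower, and with the replicate number as a block 6 were higher and 6 lower. *Gja1*, which encodes the gap junction protein connexin 43, fell from 381 and 415 CPM to 144 and 138 CPM (log2 change -1.54, SE 0.12, adjusted p = 3.2e-07), and *Col4a1*, which encodes a basement membrane collagen chain, from 229 and 235 CPM to 127 and 158 CPM (-0.74, 0.13, adjusted p = 0.0011, or 0.068 with the other supporting cell classes in the fit). The laminin chain gene *Lamc1* rose from 21.3 and 24.9 CPM to 42.1 and 60.9 CPM (1.11, 0.19, adjusted p = 0.0015). *Aldh1a1*, which encodes a retinaldehyde dehydrogenase that makes retinoic acid, fell from 1056 and 1096 CPM to 528 and 576 CPM (-1.0, 0.12, adjusted p = 4.8e-05). *Cyp26b1*, whose product breaks retinoic acid down in the fetal testis, was at 58.6 and 78.6 against 36.8 and 50.4 CPM and did not pass the test (0.60, adjusted p = 0.052). It was called in 10 of 17 alternatives, with an adjusted p of 0.00016 without dKO XY replicate 1, 0.0064 without control XY replicate 2 and 0.044 with DESeq2. Of 7 retinoid genes tested, 1 was higher and 1 lower, a number too small to set against the shares among all genes. There were 2 higher when either dKO XY library was left out, and 2 lower without dKO XY replicate 2 or without control XY replicate 2.

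Markers of other cells were also measured in the Sertoli-program cells. The 8 germ cell markers summed to 105 and 118 CPM in dKO XY and to 45.2 and 25.6 CPM in control XY, and 5 of them were higher in dKO XY. All 8 were higher after thinning to 8000 UMIs, and 1 of the 5 tested was higher in non-cycling cells. For the thinned test the rule was applied again to the thinned counts. Its limit of 5 *Dazl* UMIs was then looser, and dKO XY replicate 2 had 386 cells instead of 342. Among all genes, 9.26% were higher and 6.13% lower, shares that also stand beside the counts of the other marker lists. *Dppa3*, a gene of germ cells, was at 37.1 and 39.6 against 11.1 and 6.02 CPM, beside 5.80 and 10.7 CPM in endothelial and 1095 and 689 CPM in germ cells of dKO XY. A UMI of *Dppa3*, *Dppa5a*, *Pou5f1* or *Ddx4* was found in 59.4% and 76.0% of dKO XY and in 27.0% and 24.5% of control XY Sertoli-program cells. When these cells were left out, 704 genes were higher and 514 lower, and 1154 of these 1218 genes were among the 2064. The 7 immune markers summed to 36.2 and 41.5 against 4.77 and 7.03 CPM, with 5 higher in dKO XY. Without the 8% of cells with the highest doublet scores, 2 of the immune markers could be tested and none was called. The 6 endothelial markers summed to 46.7 and 67.4 against 28.2 and 35.0 CPM, with 2 higher in dKO XY. That number was 4 without dKO XY replicate 1 and 1 without either control XY library. The 7 Leydig cell markers summed to between 108 and 186 CPM and the 8 interstitial markers to between 346 and 612 CPM over the 4 libraries, with 1 call among them, a fall. Without dKO XY replicate 1, 3 Leydig markers were higher and 3 interstitial markers lower. The number of lower interstitial markers was 2 without dKO XY replicate 2, 0 without control XY replicate 1, 4 without control XY replicate 2 and 7 of 7 tested in non-cycling cells. In dKO XY no marker of these 5 lists was at 0. The 5 epithelial markers summed to 242 and 158 against 142 and 134 CPM, and 2 of the 3 tested were higher in dKO XY. Most of these sums came from the keratin genes *Krt8* (145 and 102 against 86.3 and 88.4 CPM) and *Krt18* (94.1 and 50.9 against 55.1 and 45.2 CPM). *Krt19* was at 2.16 and 3.75 against 0.318 and 0.251 CPM. Here 1 marker was at 0 in dKO XY replicate 2, and 1 was higher without dKO XY replicate 1 or either control XY library. The 5 pericyte markers summed to 123 and 104 against 85.8 and 91.7 CPM, with 1 higher and 1 lower, and the 5 erythroid markers to 534 and 42.5 against 43.6 and 451 CPM, with 1 lower. Without dKO XY replicate 2, 4 of the 5 erythroid markers were higher, and 2 pericyte markers were higher without dKO XY replicate 1 or control XY replicate 1. Of the 1242 higher genes, 79 (6.36%) had at least 5 times the level in the germ cells of both dKO XY libraries, 90 (7.25%) in endothelial, 70 (5.64%) in immune, 27 (2.17%) in Leydig and 30 (2.42%) in granulosa-gene cells. Among genes not called these shares were 0.819%, 2.92%, 2.57%, 1.59% and 0.564%. Of the 822 lower genes, 1 had at least 5 times the level in germ, 27 in endothelial, 21 in immune, 29 in Leydig and 11 in granulosa-gene cells. The part of RNA from other cells in the differences was otherwise not tested. The 10 dissociation and stress genes summed to 7483 and 3572 CPM in dKO XY and 5830 and 5271 CPM in control XY, and none of them was called. Without dKO XY replicate 1, 7 were lower, and without dKO XY replicate 2, 3 were higher.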

How the data were processed

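Single cell suspensions of E15.5 mouse gonads were run on 10x Genomics chips. What the authors deposited are UMI counts, not normalized, made with Cell Ranger (no version in the labels) against mm10 after correction for barcode swapping, and their notes name Seurat 4.0. Libraries came from separate embryos, with 2 biological replicates per genotype. A cell had to hold over 2500 and under 9000 genes, with mitochondrial UMIs under 25% and *Hbb* UMIs under 20% of its total, and the 9-gene rule was applied per cell. Members and gene lists were chosen with earlier results of these data known.

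UMIs were summed per library over the selected cells and tested with edgeR 4.0.16 (filterByExpr, TMM, robust quasi-likelihood fit, Benjamini-Hochberg adjustment over 13426 genes, threshold 0.05; the counts use 13417 of these, without the 9 genes of the rule), on 6277237 to 18997743 UMIs per library. The p-values measure the spread between these libraries. On simulated data for this comparison (13201 genes), 90.2% of genes changed by a log2 of 1 and 100% of those changed by 2 were recovered, and 12.1% of calls were false. The 200 changed genes all had a mean of at least 5 CPM, so recovery of lower genes was not measured. Far fewer genes were changed there than were called in the data, so the false share need not hold here. Genes named outside the lists were the called genes that rose most (12) and fell most (12), provided that their mean log2 CPM reached 5 and that libraries showed no overlap between genotypes, and 1 gene among them is not reported here. The gated classes used for comparison are defined by marker sums: germ cells by *Dazl*, Leydig cells by *Cyp17a1* and *Cyp11a1*, endothelial cells by *Pecam1*, *Cdh5* and *Egfl7*, and immune cells by immune markers. Endothelial and immune cells were also limited to under 200 CPM of *Cst9*, under 4000 CPM of *Cyp17a1* and *Cyp11a1* and under 5 *Dazl* UMIs. Doublets were not removed, and an alternative left out the 8% of cells per library with the highest Scrublet scores (scanpy 1.11.5). Other alternatives changed the test, normalization, filters, limits of the rule, depth and libraries. Intervals are exact Clopper-Pearson and cover counting error only. Gene coordinates are from GRCm38 and promoters from RefSeq.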

Additional observations from a re-analysis of the deposited data

How the results depend on the processing

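The 1242 higher and 822 lower genes were recomputed under 17 alternatives. DESeq2 called 823 higher and 574 lower genes. Cells thinned to 8000 UMIs gave 618 and 445, cells without a germ cell UMI 704 and 514, and non-cycling cells 699 and 547, all with fewer genes tested than the 13417. Of these calls, 964 of 1063, 1154 of 1218 and 1077 of 1246 were also among the 2064, as were 1360 of 1397 for DESeq2. With each library left out in turn, between 905 and 1218 genes were higher and between 620 and 824 lower, the fewest without control XY replicate 2. With the replicate number as a block, 1400 genes were higher and 1000 lower, and 1968 of the 2400 were among the 2064. Replicate numbers follow the sample titles, and whether other records number the control libraries the same way is unsure, which bears on the block and on the names of left-out control libraries. The main test did not treat the replicate numbers as pairs. The deviations of same-numbered libraries correlated at 0.07 across genes, which cannot show whether libraries shared a litter or a run. The mean share of Sertoli-program cells in dKO XY was 6.99%, and 5.33% when no UMI of *Rspo1*, *Foxl2* or *Fst* was allowed. Left-out libraries put it between 5.999% and 7.99%, and the control XY share between 2.87% and 4.52%.

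Of 67 called genes named in the text, 50 had the call in every alternative in which they were tested (14 of the 17 for *Bmp4*, 16 for *Dppa3*) and 7 lost it without 1 library. The log2 change of *Top2a*, a called gene, was 0.16 in non-cycling cells, where the call was lost. Those cells were chosen by a low sum of the mitosis genes, *Top2a* and *Mki67* among them. For both genes, the values there are therefore no check of the result. Among genes without a call, *Gata4* had 0.00912 without cells that held a germ cell UMI and 0.0926 in non-cycling cells, *Mki67* 0.48 and *Tesc* 0.00457 in non-cycling cells, and *Irx3* -0.0161 when no UMI of the 3 granulosa genes was allowed. *Ptgds* lay between -0.25 and 0.0619 with libraries left out, and *Znrf3*, also without a call, between -0.0223 and 0.32, with -0.0467 in non-cycling cells. For the other genes, the cause of these changes was not tested. Between 2 libraries and 2 libraries, small changes in genes of a few CPM rest on few UMIs.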
